A study of Mus musculus with 10 samples.

Results

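The interferon receptor chains and their Janus kinases were examined as a group of 8 genes, Ifngr1, Ifngr2, Ifnar1, Ifnar2, Il10rb, Jak1, Jak2 and Tyk2, picked by symbol from a table of 17171 genes. All 8 had a row and all 8 passed the filter on low values, which kept 11169 genes. The cells were a PyMt breast cancer cell line, derived from mammary tumors of mice that carry the polyoma middle T oncogene (MMTV-PyMt, C57BL/6 background), grown in low-adherence plates with added insulin and, by the sample titles, in supernatant of CD4+ T cells. Per the labels, test supernatants came from T cells of Tslp-PyMttg mice (6 libraries, tagged Test3, Test1 and Test2) and control supernatants from T cells of Tslp-PyMttg TslprKO and PyMttg mice (4 libraries, tagged Control and Blank), with 2 libraries for each tag. In the Tslp transgene the keratin 14 promoter drives thymic stromal lymphopoietin (TSLP), and TslprKO mice lack its receptor. Per the paper's methods, all T cells were sorted from tumors and draining lymph nodes and stimulated with anti-CD3 and anti-CD28 antibodies, IL-2 and TSLP, so the control supernatants described there were also from T cells stimulated with TSLP. The labels give no genotype for a single library, no dilution of the supernatant and no age of the mice. Blank and Control libraries carry the same title, which names control supernatant, and the tag Blank is not explained. The culture notes also describe cells kept in medium without supernatant, and whether the Blank libraries are such cells is not stated. All libraries are of 1 cell line, and no source states whether those of a set are separate cultures. The p-values therefore rest on a spread between libraries that may be technical.

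Interferon gamma binds a receptor built from the ligand-binding chain Ifngr1 and the signaling chain Ifngr2, which hold Jak1 and Jak2. Type I interferons bind Ifnar1 and Ifnar2, which hold Tyk2 and Jak1, and Il10rb is an accessory chain shared by the receptors for IL-10, IL-22 and type III interferons and holds Tyk2. Ligand binding brings the kinases together, and they phosphorylate STAT factors that carry the signal to the nucleus. Most nucleated cells carry both interferon receptors. Interferon gamma is a typical product of activated T cells.

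Values are FPKM (fragment counts divided by the length of the transcript and the size of the library), which allows levels of different genes to be set side by side. FPKM summed to 419709 to 487591 per test library and 414783 to 425896 per control library. Read totals are not given, and the spacing of the lowest values put them at an estimated 11.15 to 15.1 M reads (M, mega) per test library and 12.75 to 13.55 M per control library. The Blank libraries stood apart from the other 8. Of 21 tested interferon response genes, 19 were higher in the Control pair than in the Blank pair (adjusted p under 0.05 from limma). The share of all tested genes called there was 5.94%. Calls between test and control libraries are therefore also given against Control-tagged libraries alone. These are from a fit of the 5 label sets unless a fit of fewer libraries is named. Its spread is that within sets and leaves out differences between sets of a condition. That fit called 403 genes, and a fit without the Blank libraries called 44. The cells had RNA of 2 epithelial keratins (Krt8 at 374.74 to 991.79 FPKM and Krt18 at 729.6 to 1881.63 FPKM over the 10 libraries). Of the other epithelial markers listed, Cldn3 was at 62.9 to 182.21 FPKM, Cdh1 at 8.69 to 14.24 and Epcam at 3.59 to 8.19. Krt14 stayed at or under 1.61 FPKM and Krt5 at or under 0.07, and Krt19 had no values. Of 8 T cell markers, Cd3d reached 16.65 FPKM, and Cd5, Cd28 and Lck stayed at or under 0.26 FPKM. The other 4 (Cd3e, Cd3g, Cd4 and Cd2) were not found by symbol among the 17171 genes. The 4 with values summed to 2.39 to 16.9 FPKM in test libraries and 1.12 to 4.87 in control libraries.

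Among the 8 genes, Ifngr2 was the 1 called higher in test than in control libraries (limma on log2(FPKM + 1), a call at an adjusted p under 0.05 over all 11169 genes). It was not called with sets in place of libraries as the unit (adjusted p = 0.309 from limma). Nor was it called in a fit without the Blank libraries (adjusted p = 0.422 from limma). Ifngr2 and Ifnar2, the chains that pair with Ifngr1 and Ifnar1, also rose in the Control set relative to the Blank set, with Ifngr2 at 56.6 against 31.6 FPKM and Ifnar2 at 38.9 against 22.1 FPKM. Jak2 was higher in Test3 than in Test1 and Test2. Ifngr1, Ifnar1, Il10rb, Jak1 and Tyk2 passed limma's test in none of 5 comparisons, nor had any of them an unadjusted p under 0.05. Between test and control 1 of 8 genes was thus called, beside 7.87% of all tested genes. For the Control set against the Blank set it was 2 of 8, beside 5.94% of all genes. It was 1 of 8 for the test sets against Control-tagged libraries (3.61% of all genes), 1 of 8 for Test3 against Test1 and Test2 (6.48%) and none for Test1 against Test2 (0.161%), a comparison in which no member reached an unadjusted p under 0.05 either. With so few members these counts say nothing of the group as a whole, and the median difference of the 8 between test and control, 0.04 on the log2 scale, was close to that of all genes (-0.03).

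**Figure D1:**
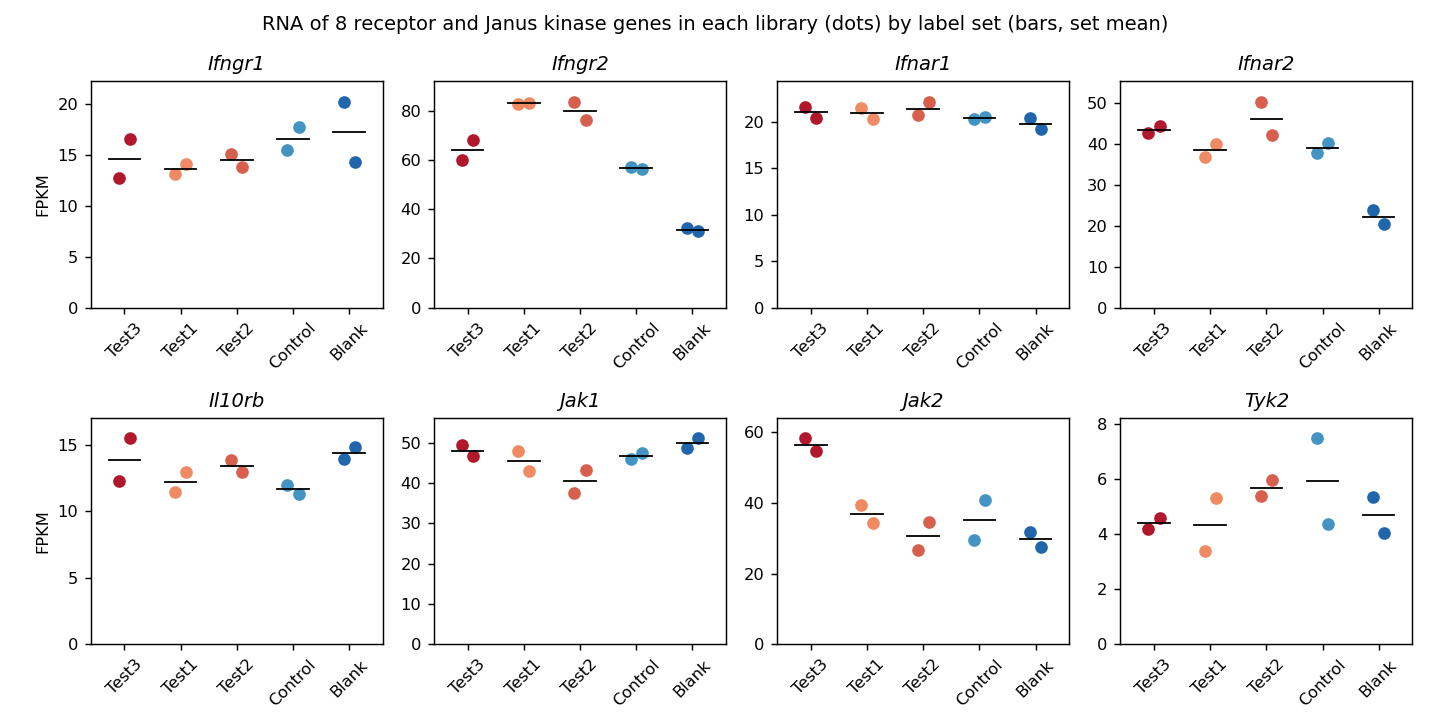
FPKM of each of the 8 genes (vertical axes, each from 0) in every library, by label set from the 3 test sets on the left to Control and Blank on the right, with dots for libraries and bars for set means. Ifngr2 lay at 59.83 FPKM or more in test libraries and at 57.01 or less in control libraries, Ifnar2 was lowest in Blank, and Jak2 was highest in Test3.

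**Figure D2:**
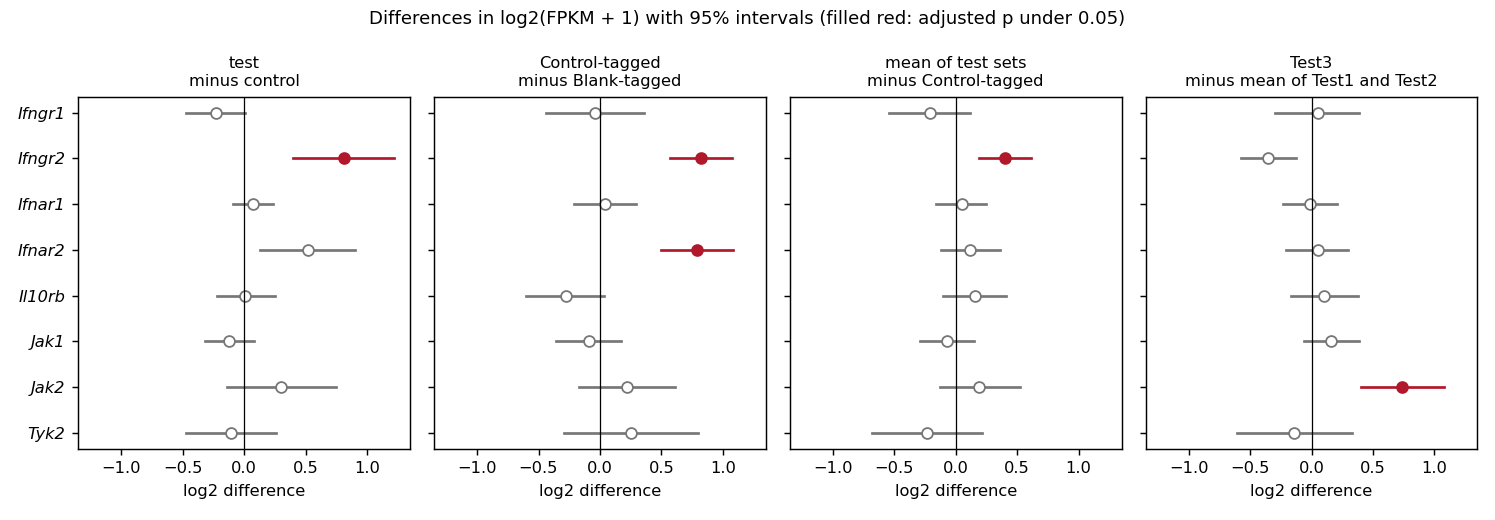
Differences in log2(FPKM + 1) with 95% intervals from limma for each gene (rows) in 4 comparisons (panels). Filled red points passed an adjusted p of 0.05: Ifngr2 in 3 panels, Ifnar2 in Control-tagged minus Blank-tagged libraries and Jak2 in Test3 minus the mean of Test1 and Test2.

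Levels differed widely between the genes. In test libraries Ifngr2 was the most abundant at 75.6 ± 9.81 FPKM (SD, n = 6), and its range did not overlap that of the next gene. Jak1 (44.6 ± 4.29), Ifnar2 (42.6 ± 4.53) and Jak2 (41.3 ± 12.5) followed with overlapping ranges. Ifnar1 stood below them at 21.1 ± 0.742 FPKM, and Ifngr1 (14.2 ± 1.41) and Il10rb (13.2 ± 1.40) overlapped each other. Tyk2 was lowest at 4.81 ± 0.936 FPKM. In control libraries Jak1 came first at 48.3 ± 2.17 FPKM (SD, n = 4), ahead of Ifngr2 at 44.1 ± 14.4, but each gene from Jak1 down to Il10rb overlapped its neighbor in this order and only Tyk2, at 5.31 ± 1.55, stood clear of the member above it. By mean FPKM over all libraries Ifngr2 ranked 1216 and Tyk2 8161 among the 17171 genes. The fewest reads behind any value, estimated from these depths, were about 190 for Tyk2 and 1540 for Ifngr2, so the values of Tyk2 are the less precise ones.

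Ifngr1, the chain that binds interferon gamma, was present in every library. It had 12.7 and 16.6 FPKM in Test3, 13.1 and 14.1 in Test1, 15.1 and 13.9 in Test2, 15.5 and 17.7 in Control and 20.3 and 14.3 in Blank. Test and control libraries overlapped. The test minus control difference was -0.23 on the log2 scale (standard error 0.11, 95% interval -0.47 to 0.01, adjusted p = 0.227 from limma), and that of Control-tagged minus Blank-tagged libraries was -0.04 (interval -0.44 to 0.36, adjusted p = 0.936).

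Ifngr2, the signaling chain of the same receptor, had 59.8 and 68.0 FPKM in Test3, 82.9 and 83.1 in Test1, 83.7 and 76.3 in Test2, 57.0 and 56.2 in Control and 32.2 and 31.1 in Blank. Every test library was above every control library. Among the 8 genes it was the only one whose test and control libraries did not overlap, as did not 9.48% of all genes. The means were 1.71 times apart, with a log2 difference of 0.81 (standard error 0.19, 95% interval 0.40 to 1.22, adjusted p = 0.0246 from limma). An exact permutation test of the 10 libraries, two-sided, gave p = 0.00476, the smallest that its 210 arrangements allow. There was no adjustment for the 8 genes. The test treats the libraries as exchangeable, although they come in sets of 2, so it takes no account of likeness within a set. The difference was smaller without the Blank libraries. Against Control-tagged libraries alone the mean ratio was 1.34 and the difference 0.40, with adjusted p = 0.422 from limma in a fit of those 8 libraries and 0.0448 (standard error 0.09) in the fit of the 5 label sets, whose spread is that between the 2 libraries of a set. Control-tagged libraries were themselves 1.79 times Blank-tagged ones, a log2 difference of 0.82 (standard error 0.11, adjusted p = 0.00144 from limma), with both Control libraries above both Blank libraries.

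The call of Ifngr2 between test and control was lost without Blank-1 (difference 0.68, adjusted p = 0.106 from limma), Blank-2 (0.67, adjusted p = 0.0977) or Test1-2 (0.78, adjusted p = 0.0537), while the call of Control-tagged against Blank-tagged libraries was kept in all 18 alternatives. It was also lost without a filter on low values (adjusted p = 0.0506), without the set Test1 (0.102) or Test2 (0.0606) or with sets in place of libraries as the unit (0.309). The call in the fit of label sets against Control-tagged libraries was lost on leaving out any 1 library other than Test2-2, with differences of 0.37 to 0.43. Within the test sets the difference of Test3 from Test1 and Test2 was -0.35 for Ifngr2, which did not pass the test (interval -0.57 to -0.13, adjusted p = 0.0674 from limma).

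The RNA of whole cultures was measured, so fewer cells of a type and less RNA per cell cannot be told apart. Other markers moved beside Ifngr2 between the Control and Blank sets. Of 5 tested epithelial markers, Krt8 and Krt18 were higher in Control-tagged libraries (log2 differences 0.84 and 1.19, adjusted p = 0.00592 and 0.00193 from limma). Epcam, Cdh1 and Cldn3 were not called there (0.34, -0.03 and 0.79, lowest adjusted p 0.143 from limma). Of 6 fibroblast markers the 1 tested, Pdgfrb, was lower (-1.38, adjusted p = 0.000373 from limma). Pdgfrb was also lower in test than in control libraries (7.16 against 32.0 FPKM), and than in Control-tagged libraries alone (-1.21, adjusted p = 0.000561 from limma). Col1a1, Col1a2, Pdgfra and Thy1 stayed at or under 0.60 FPKM and Dcn at or under 1.14. The 6 summed to 6.14 to 12.3 FPKM in test libraries and 17.8 to 49.0 in control libraries. Most of these sums was Pdgfrb alone, at 5.01 to 10.5 FPKM in test and 16.85 to 47.48 in control libraries. The part of these cell types in the result was not tested.

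The 250 bases before the start sites of the 2 receptor genes called in these comparisons are shown because they were searched for the sites of factors that interferons and inflammatory cytokines activate. They are from RefSeq (GRCm38.p6, plus strand), in lower case with motif matches in capitals, and lie at chr16:91546809-91547058 for Ifngr2 and chr16:91372533-91372782 for Ifnar2. In Ifngr2 the capitals mark a kappa B match on the minus strand, 75 to 66 bases before the start, and in Ifnar2 a gamma-activated site match, 214 to 206 bases before the start.
Ifngr2: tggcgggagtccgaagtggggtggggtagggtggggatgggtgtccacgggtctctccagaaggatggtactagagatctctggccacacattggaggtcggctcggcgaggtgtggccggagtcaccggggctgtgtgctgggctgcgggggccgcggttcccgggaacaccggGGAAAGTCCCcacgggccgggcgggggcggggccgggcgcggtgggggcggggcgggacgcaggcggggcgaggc
Ifnar2: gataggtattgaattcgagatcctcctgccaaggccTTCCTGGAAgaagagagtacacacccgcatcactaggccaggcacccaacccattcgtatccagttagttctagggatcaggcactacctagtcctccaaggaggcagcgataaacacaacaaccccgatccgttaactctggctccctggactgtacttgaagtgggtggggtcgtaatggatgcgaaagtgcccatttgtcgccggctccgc
Both strands of each window were searched for the gamma-activated site TTCNNNGAA, to which STAT dimers bind, the core of the interferon-stimulated response element GAAANNGAAA and the kappa B motif GGGNNTTTCC, none of which overlapped another match here. Of 32851 promoter windows of the same length, 7.02%, 2.98% and 1.41% held them in that order. Promoters of 7 of the 8 genes were in the table used, and the other 5 of these had no match in the 250 bases. For Ifnar1, Jak1 and Tyk2 that window overlaps the gene span given below, so part of it lies within the annotated gene. A match is a string of letters only.

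Ifnar1, a chain of the type I interferon receptor, varied least of the 8 genes. It had 21.6 and 20.4 FPKM in Test3, 21.4 and 20.3 in Test1, 20.7 and 22.1 in Test2, 20.3 and 20.5 in Control and 20.4 and 19.2 in Blank, so that its highest value was 1.16 times its lowest. The test minus control difference was 0.07 on the log2 scale with an interval of -0.09 to 0.23 (adjusted p = 0.612 from limma).

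Ifnar2, the other chain of that receptor, had 42.5 and 44.2 FPKM in Test3, 36.7 and 40.0 in Test1, 50.2 and 42.0 in Test2, 37.7 and 40.2 in Control and 23.8 and 20.4 in Blank. The Blank libraries were below the other 8, and the Control libraries lay among the test libraries. Test and control averaged 42.6 ± 4.53 FPKM (SD, n = 6) and 30.5 ± 9.85 FPKM (SD, n = 4), a log2 difference of 0.52 (standard error 0.18) that did not pass the test (adjusted p = 0.0958 from limma, exact permutation p = 0.0238 with no adjustment for the 8 genes). Without Control-1 or Control-2 it passed (differences 0.63 and 0.66, adjusted p = 0.0432 and 0.0425 from limma). Control-tagged libraries were 1.76 times Blank-tagged ones, a difference of 0.79 (standard error 0.13, 95% interval 0.50 to 1.08, adjusted p = 0.00472 from limma). This call was lost without Blank-2 (0.69, adjusted p = 0.0848). Against Control-tagged libraries alone the test sets differed by 0.12 (interval -0.12 to 0.36, adjusted p = 0.655 from limma). Transcripts of 1099 and 3047 bases are annotated for Ifnar2 and share 1 row of the table, so that membrane-bound and soluble forms are not separated, and an annotated non-coding gene, Gm36587, shares 6540 bases of its locus. The library kit is not said to mark strand.

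Il10rb, the shared accessory chain, had 12.3 and 15.5 FPKM in Test3, 11.4 and 13.0 in Test1, 13.9 and 13.0 in Test2, 12.01 and 11.34 in Control and 14.0 and 14.9 in Blank. Both Control libraries lay below both Blank libraries, the opposite order to Ifngr2 and Ifnar2, but the difference of -0.28 on the log2 scale did not pass the test (interval -0.60 to 0.03, adjusted p = 0.324 from limma). Test minus control was 0.01 (interval -0.22 to 0.25).

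The chains of each receptor thus stood in different ratios in different sets. Ifngr2 was 4.10 to 4.71 times Ifngr1 in Test3, 5.88 to 6.32 times in Test1, 5.50 to 5.53 times in Test2, 3.17 to 3.67 times in Control and 1.59 to 2.17 times in Blank. Test and control libraries did not overlap in this ratio, which averaged 5.34 ± 0.81 in test (SD, n = 6) and 2.65 ± 0.95 in control libraries (SD, n = 4). The level of Ifngr2 by itself did not overlap either, so the ratio is not a separate result. Ifnar2 was 1.71 to 2.43 times Ifnar1 in test libraries, 1.86 to 1.96 times in Control and 1.07 to 1.17 times in Blank, so that only the Blank libraries stood apart. The ratios were described and not tested.

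**Figure D3:**
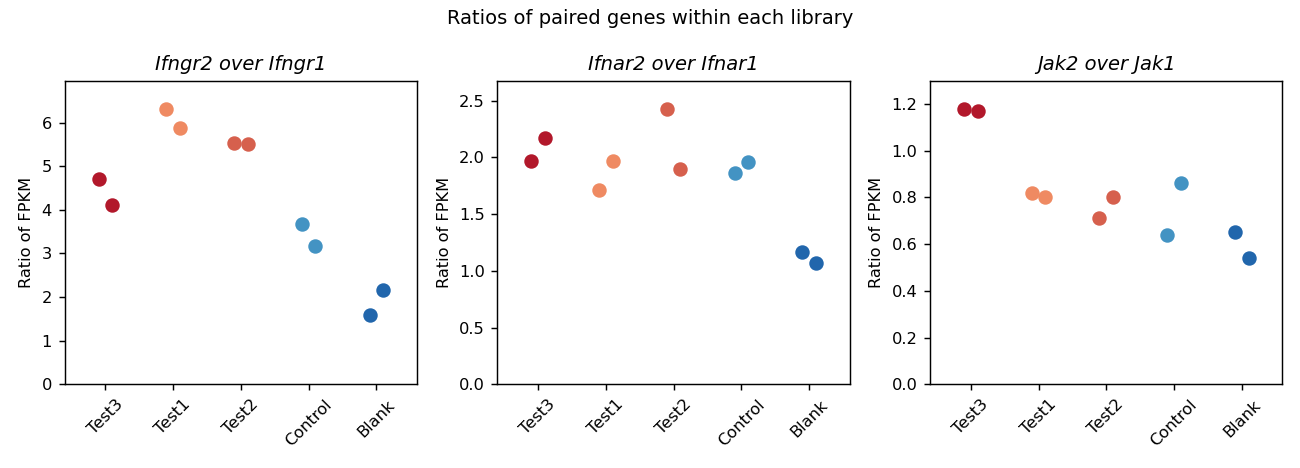
Ratio of FPKM within each library (vertical axes, from 0) for Ifngr2 over Ifngr1, Ifnar2 over Ifnar1 and Jak2 over Jak1, with a dot for each of the 2 libraries of a set. Ifngr2 over Ifngr1 was 4.10 or more in test libraries and 3.67 or less in control libraries, and Jak2 over Jak1 was 1.17 to 1.18 in Test3.

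Jak1, the kinase shared by both interferon receptors, had 49.3 and 46.8 FPKM in Test3, 47.9 and 42.9 in Test1, 37.5 and 43.2 in Test2, 45.9 and 47.4 in Control and 48.7 and 51.0 in Blank. Test and control libraries overlapped, although both Test2 libraries lay below both libraries of Test3, Control and Blank. The test minus control difference was -0.12 (interval -0.32 to 0.08, adjusted p = 0.47 from limma). Raver2 shares 397 bases with the end of Jak1 and was at 0.16 FPKM in test and 0.113 FPKM in control libraries on average.

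Jak2, the kinase bound to Ifngr2, had 58.2 and 54.6 FPKM in Test3, 39.3 and 34.4 in Test1, 26.7 and 34.6 in Test2, 29.6 and 40.7 in Control and 31.8 and 27.6 in Blank. Both Test3 libraries were above the other 8, among which test and control libraries overlapped. Test3 was 1.53 times Test1 and 1.84 times Test2, a log2 difference from the mean of both of 0.74 (standard error 0.15, 95% interval 0.40 to 1.08, adjusted p = 0.0216 from limma). The call was lost without Test1-2 (0.69, adjusted p = 0.0525), Test2-1 (0.65, adjusted p = 0.062), Test3-1 (0.69, adjusted p = 0.189) or Test3-2 (0.78, adjusted p = 0.0599). Test minus control was 0.30 (interval -0.14 to 0.75, adjusted p = 0.387 from limma), and Test1 minus Test2 was 0.27 (interval -0.13 to 0.66). In the same sets the T cell marker Cd3d averaged 10.9 FPKM in Test3, 4.08 in Test1 and 2.54 in Test2 (difference 1.34, adjusted p = 0.0942 from limma). Cd5, Cd28 and Lck averaged at most 0.19 FPKM in any of these sets, and Cd3e, Cd3g, Cd4 and Cd2 had no values. Krt8 and Krt18 were lower in Test3 (-1.07 and -0.87, adjusted p = 0.00104 and 0.00901 from limma). The other tested epithelial markers, Epcam, Cdh1 and Cldn3, were not called (-0.01, -0.01 and -0.41, lowest adjusted p 0.324 from limma). Any part of these cell types in the level of Jak2 was not tested.

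Tyk2, the kinase of Ifnar1 and Il10rb, was the least abundant member. It had 4.20 and 4.59 FPKM in Test3, 3.38 and 5.33 in Test1, 5.38 and 5.96 in Test2, 7.49 and 4.37 in Control and 5.34 and 4.05 in Blank. Test and control libraries overlapped, with a difference of -0.11 (interval -0.47 to 0.26). Jak3, the kinase of receptors with the common gamma chain and no member of the group, was at 5.17 ± 1.15 FPKM in test (SD, n = 6) and 4.70 ± 1.26 FPKM in control libraries (SD, n = 4). Jak1 made up 41.4 to 41.9% of the summed FPKM of the 4 kinases in Test3 and 48.5 to 50.8% in Test1 and Test2, against 49.3 to 51.3% in Control and 53.7 to 59.0% in Blank. Jak2 made up 48.4 to 49.5% in Test3, the only set in which it exceeded Jak1.

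Ifnar2, Il10rb, Ifnar1 and Ifngr2 lie in this order in 191225 bases of chromosome 16 (chr16:91372783-91405589, chr16:91406157-91425834, chr16:91485032-91510523 and chr16:91547059-91564007 in GRCm38.p6), all on the plus strand. The end of Ifnar2 and the start of Il10rb are 567 bases apart with no annotated gene between. Ifngr1 lies on chromosome 10 (chr10:19591949-19610229), Jak1 on chromosome 4 (chr4:101151974-101265282), Jak2 on chromosome 19 (chr19:29251803-29313095) and Tyk2 on chromosome 9 (chr9:21104068-21131393). On chromosome 16 the first and last gene of the row, Ifnar2 and Ifngr2, had differences of 0.79 and 0.82 between the Control and Blank sets. Il10rb and Ifnar1 between them had differences of -0.28 and 0.04. Of 14 tested genes within 500 kb on either side, none was called in that comparison by limma, beside 5.94% of all tested genes. Of the 14, 2 had an unadjusted p under 0.05 from limma, and the differences ran from -0.40 to 0.25. Between test and control 2 of the 14 were lower and none was higher, where 7.87% of all tested genes were called. With so few genes these counts say nothing of the region as a whole. The 2 lower genes were Itsn1, which encodes an endocytic scaffold (-0.54, adjusted p = 0.0321 from limma), and the inositol transporter gene Slc5a3 (-0.71, adjusted p = 0.0322 from limma). Against Control-tagged libraries alone neither call was kept (-0.33 and -0.51, adjusted p = 0.194 and 0.0903 from limma).

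**Figure D4:**
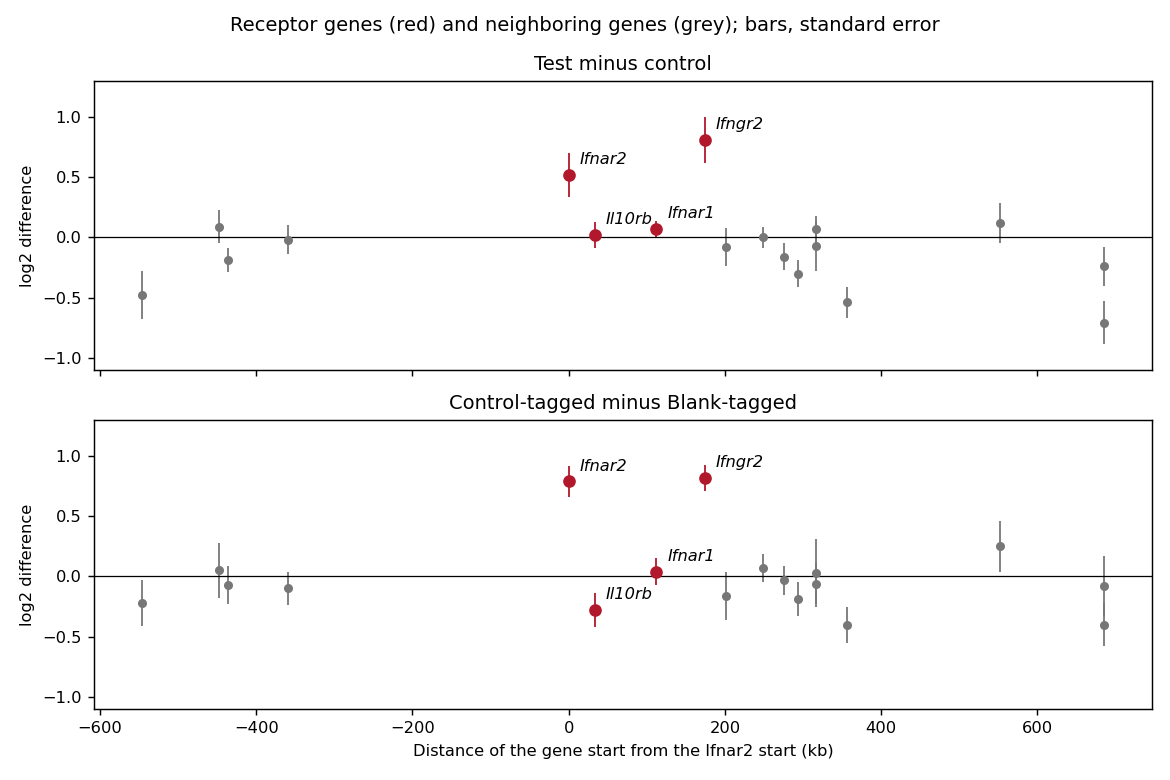
Log2 differences with standard errors (vertical axes) for the 4 receptor genes of chromosome 16 in red and the 14 tested neighbors in grey, by distance of the gene start from the start of Ifnar2. In Control-tagged minus Blank-tagged libraries Ifnar2 and Ifngr2 stood at 0.79 and 0.82, and the neighbors ran from -0.40 to 0.25.

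The genes most like Ifngr2 over the 10 libraries, by Pearson r of log2(FPKM + 1), were Bcat1, a branched-chain amino acid transaminase (r = 0.987), Nppb, which encodes a natriuretic peptide (0.986), Cd47, a surface protein that inhibits phagocytosis (0.981), Pex5, a receptor for peroxisomal import (0.978), and the protease inhibitor gene Serpina3f (0.976). Each was lowest in Blank, as was Ifngr2. Nppb averaged 120 FPKM in test, 70.1 in Control and 14.3 in Blank libraries, and Cd47 averaged 62.6, 50.3 and 29.4 FPKM. For Ifnar2 they were 1110038F14Rik (0.992), Casp1, the protease of inflammasomes (0.981), Psme2, a subunit of the proteasome activator (0.978), Clec2d, a lectin-like membrane protein gene (0.977), and the adaptor gene Grb2 (0.977). Casp1 averaged 23.8 FPKM in test, 22.6 in Control and 2.65 in Blank libraries. All these values share the same 10 libraries, of which the Blank pair is far from the rest, and the lists are a description.

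Other genes of the pathway were taken from 7 lists chosen with earlier results of these data known. Of 16 ligand genes only Il10 was found by symbol among the 17171 genes. It was listed at 0 in all 6 test libraries and at most at 0.12 FPKM in control libraries. Ifng was among the ligand genes not found. Among partner chains, Ifnlr1, which pairs with Il10rb to bind type III interferons, was at or under 0.75 FPKM, and Il22ra1 at or under 0.13 FPKM. F3, the tissue factor gene of the same receptor family, was higher in Control than in Blank libraries (63.2 against 43.4 FPKM, difference 0.53, adjusted p = 0.0472 from limma).

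Of 6 tested genes from a list of STAT factors and Irf9, none was called between test and control by limma (3 had an unadjusted p under 0.05), with a median difference of 0.45 beside -0.03 for all genes. In Control-tagged against Blank-tagged libraries 3 of the 6 were higher, beside 5.94% of all genes, with a median of 0.93. They were Stat2 (26.2 against 3.33 FPKM, difference 2.65), Stat3 (70.5 against 23.4 FPKM, 1.55) and Irf9 (26.2 against 6.38 FPKM, 1.87), with a highest adjusted p of 3.76e-05 from limma. Stat2 and Irf9 act together downstream of the type I receptor, and Stat3 is the main factor downstream of IL-6 family and IL-10 receptors. Stat2 was at 26.1 FPKM in test and 26.2 in Control libraries.

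Of 18 tested inhibitors of this signaling, 3 were higher and none lower in test libraries, with a median of 0.08, where 7.87% of all tested genes were called. Socs3, which blocks Jak1, Jak2 and Tyk2, was at 84.5 ± 24.6 FPKM in test (SD, n = 6) and 16.4 ± 12.7 in control libraries (SD, n = 4), a difference of 2.58 (adjusted p = 0.00694 from limma). Cish, a member of the same family, and Usp18, which binds Ifnar2 and damps its signal, were higher by 2.21 and 1.25 (adjusted p = 0.0149 and 0.0345). Socs1 had a larger difference than Usp18, 2.33, and did not pass the test (adjusted p = 0.0719). Against Control-tagged libraries, in the fit of label sets, the differences were smaller. The spread of that fit leaves out differences between sets of a condition. Socs3 and Cish kept their calls (1.58 and 1.15, adjusted p = 0.000211 and 0.0216 from limma), and Usp18 did not (0.57, adjusted p = 0.238). In that comparison 3 of the 18 were higher and none lower, with a median of 0.04, beside 3.61% of all genes. Against Blank-tagged libraries 4 inhibitors were higher in Control-tagged ones and 1 was lower, with a median of 0.03, beside 5.94% of all genes.

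Of 13 tested other receptors that use Janus kinases, 3 were higher and 1 lower in test libraries, with a median of 0.37, where 7.87% of all tested genes were called. The IL-4 and IL-13 receptor chains Il4ra (15.0 against 6.12 FPKM, difference 1.16, adjusted p = 0.00641 from limma) and Il13ra1 (43.1 against 18.9 FPKM, 1.31, adjusted p = 0.0211) and the oncostatin M receptor Osmr (26.1 against 14.6 FPKM, 0.84, adjusted p = 0.0272) were higher. Il6ra, chosen for mention after its values were seen, was lower (6.61 against 10.7 FPKM, -0.65, adjusted p = 0.0356). Against Control-tagged libraries, on the spread within sets alone, Il4ra, Il13ra1 and Il6ra kept their calls. Their differences were 0.97, 0.60 and -0.67 (adjusted p = 0.00726, 0.0192 and 0.0179 from limma). Osmr did not keep its call (0.43, adjusted p = 0.118 from limma). There 2 of the 13 were higher and 1 lower, with a median of 0.30, beside 3.61% of all genes. Il15ra had a difference of 1.60 that did not pass (adjusted p = 0.0745), and was at 7.12 FPKM in Control against 0.34 in Blank libraries. In Control-tagged against Blank-tagged libraries 5 of the 13 were higher and none lower, beside 5.94% of all genes, with a median of 0.63 beside -0.03 for all genes.

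**Figure D5:**
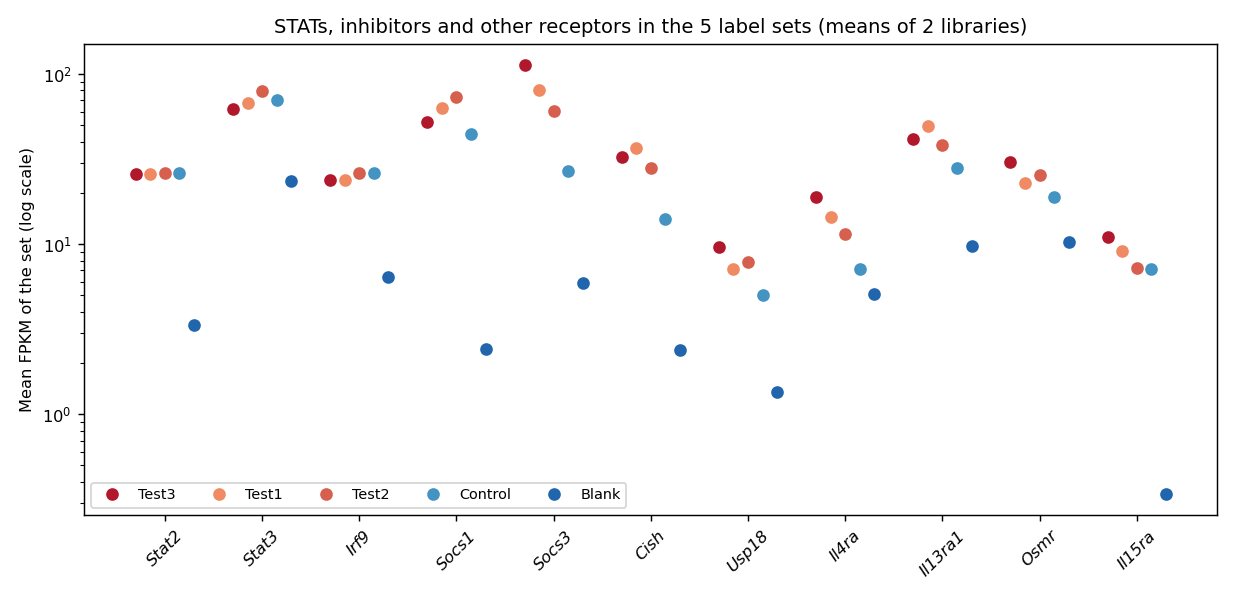
Mean FPKM of the 2 libraries of each label set (vertical axis, log scale) for Stat2, Stat3 and Irf9, 4 inhibitors and 4 other receptors (horizontal axis), those with the largest test minus control differences of their lists. All 11 were lowest in Blank, and Socs3 was highest in Test3 (112 FPKM).

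Of 21 tested interferon response genes, 3 were higher and none lower in test than in control libraries, with a median of 1.71, where 7.87% of all tested genes were called. They were the chemokine genes Cxcl9 and Cxcl10 (differences 3.69 and 3.51, adjusted p = 0.0118 and 0.0258 from limma) and Gbp5, which encodes a guanylate-binding protein and was chosen for mention after its values were seen (2.27, adjusted p = 0.0327). In Control-tagged against Blank-tagged libraries 19 of 21 were higher, beside 5.94% of all genes, with a median of 3.30. Gbp2 and the GTPase gene Igtp were at 1580 and 382 FPKM in Control against 49.7 and 10.0 FPKM in Blank libraries. In the test sets against Control-tagged libraries 4 were higher and 1 lower, beside 3.61% of all genes, with a median of 0.10 beside -0.03 for all genes. Cxcl9, Cxcl10 and Gbp5 were again higher there, by 2.01, 1.48 and 1.26 (highest adjusted p 0.000104 from limma, on the spread within sets alone). In Test3 against Test1 and Test2, where Jak2 was higher, 7 were higher and 2 lower, beside 6.48% of all genes, with a median of 0.28 beside -0.01.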

How the data were processed

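RNA of PyMt cells was measured by RNA sequencing in 10 libraries. Bowtie and mm10 are the aligner and genome named in the paper's methods and the submitters' notes. The authors deposited FPKM, with 2 decimals, in 1 table. Its program and annotation were not given in the sources used here. Since the count-based tests of the paper's methods (Poisson method, NOISeq, EBSeq) need read counts, limma was used.

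Groups came from the sample titles. Of 17171 genes, 17113 were matched by gene number to RefSeq GRCm38.p6, the source of coordinates and promoters, and 24 symbols that had become dates were restored. Values were taken as log2(FPKM + 1), a scale that understates changes of low genes. Genes that reached 1 FPKM in 4 or more libraries (11169) were fitted by limma 3.58.1 under R 4.3.3 with a trend in eBayes, two-sided tests, Benjamini-Hochberg adjustment and a threshold of 0.05, once with the 2 conditions and once with the 5 label sets as groups. Members were also compared by exact permutation (two-sided, 210 arrangements of 6 and 4 libraries), which does not keep the libraries of a set together. Depth was estimated from the spacing of values under 0.5 FPKM in 5567 genes with 1 transcript of 600 to 2500 bases. The fit was also run on simulated data with independent noise in each library. That run held no likeness within a set, so it cannot show how such likeness affects the calls. Python 3.11.15, pandas 2.3.3 and matplotlib 3.10.9 were also used.

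Named genes were the 8 members, at most 4 per pathway list by the size of the test minus control difference, Jak3 and Ifng, the 5 genes most like each receptor gene called, and neighbors within 500 kb. Il6ra, Gbp5, Il10, Ifnlr1, Il22ra1, Raver2, Gm36587 and markers of other cell types were named outside this rule. The members and lists were chosen with earlier results of these data known. Alternatives covered the pseudocount, filter, scaling, trend, replicate block, threshold, unit of replication, choice of control libraries and each library or test set left out. Of the STAT list 1 gene is not reported here. Proteins and read counts were not used, and no column was left out.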

Additional observations from a re-analysis of the deposited data

Results flagged for a closer look

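The level of Jak2 differed between the test sets. Its difference of Test3 minus the mean of Test1 and Test2 was 0.74 on the log2 scale (standard error 0.15, adjusted p = 0.0216 from limma), with both Test3 libraries above all 4 libraries of the other test sets. This is also the difference between the effects of these sets against the same control libraries. In 16 checks of a library far from the others of its condition, 8 genes in test and 8 in control, none passed, where chance passes about 1 in 20. Such a check of single libraries is not made to flag a pair that stands apart together, as the Blank pair did for Ifngr2.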

How the results depend on the processing

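Over all alternatives the values of single genes kept their direction and their side of the threshold in 720 cases, fell below it in 25, passed it in 5 and changed sign in 26. Where a count of 0 members follows, it is from limma, and 1 to 3 members had an unadjusted p under 0.05 in each such case. Between test and control the count of members called, 1, became 0 without a filter, with the label set as the unit, with Control-tagged libraries alone as control, without Test1 and without Test2, and 2 (Ifngr2 and Ifnar2) at a threshold of 0.1 and with Blank-tagged libraries alone as control. Leaving out single libraries gave 0 to 2 in this comparison, 1 to 2 in Control against Blank, 0 to 1 in the test sets against Control and 0 to 1 in Test3 against Test1 and Test2. With label sets as a random effect Ifngr2 kept its call (adjusted p = 0.0468 from limma). For the test sets against Control the count was 0 with quantile normalization, without the trend and with the replicate block. For Test3 against Test1 and Test2 it was 2 at a threshold of 0.1. By the exact permutation test Ifngr2 and Ifnar2 had p under 0.05, and 1 to 3 members did on leaving out single libraries, an alternative added after the data had been seen, as were the pseudocount and scaling for this test.

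Signs changed only for differences that passed no test. For Il10rb in test minus control they did so with Blank-tagged libraries alone (-0.126), without Test2 (-7.59e-05) and without Test3 (-0.0196), and for Tyk2 with Blank-tagged libraries alone (0.0208). Leaving out single libraries gave -0.045 to 0.0759 for Il10rb and -0.204 to 0.046 for Tyk2 in test minus control, and -0.274 to 0.199 for Ifngr1, -0.0039 to 0.444 for Jak2 and -0.0755 to 0.585 for Tyk2 in Control minus Blank. In the test sets minus Control it gave -0.0303 to 0.418 for Jak2 and -0.565 to 0.0963 for Tyk2. In Test3 minus Test1 and Test2 it gave -0.134 to 0.224 for Ifngr1, -0.0483 to 0.0304 for Ifnar1, -0.0182 to 0.108 for Ifnar2 and -0.0538 to 0.259 for Il10rb, and quantile normalization gave 0.0146 for Ifnar1. In Test1 minus Test2 it gave -0.0115 to 0.12 for Ifngr2 and -0.0822 to 0.0138 for Ifnar1, and median ratio scaling gave 0.0195 for Ifnar1.

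Library numbers gave no consistent pairing of the libraries. Correlations of the deviations of same-numbered libraries ran from -0.52 to 0.261 over 10 pairs of sets and 1 was over 0.1. The lowest was that of Control and Test1, whose opposite-numbered libraries deviated together. A batch that does not follow the numbers is not covered by this check. The replicate block left all other counts of members called as they were, while with it 222 genes were higher and 332 lower between test and control, beside 330 and 549 without.

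The limits are 2 libraries per set, 1 cell line, an unexplained tag and depth known only as an estimate. Without Blank-1 or Blank-2, 145 genes were called between test and control, and 44 in a fit with both left out, beside 879. The cause of these changes was not tested.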
